A study of Mus musculus with 65 samples.

Results

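The Rab genes encode small GTPases of the Ras superfamily. The 46 genes described here are all the lines of the table of single neurons whose symbol is Rab followed by a number and at most a letter and a further digit, out of 11875 genes with a name of their own. Each was kept whatever its level, and no Rab name was repeated. GENCODE M21 holds 59 such names, and the other 13 were not analysed here.

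The cells were 65 single HSD2 neurons, picked by hand for red fluorescence from papain-treated tissue of male mice of mixed strain. These neurons lie in the brainstem, in the nucleus of the solitary tract (NTS), and make the enzyme 11-beta-hydroxysteroid dehydrogenase type 2, which lets them sense the sodium-retaining hormone aldosterone. All mice carried Hsd11b2-Cre and the Ai9 reporter, so tdTomato marks any cell in which this Cre was active at some time, and 33 cells came from mice on standard chow and 32 from mice on a low sodium diet. The labels name no animal, and give no age or length of the diet. Each diet is therefore 1 sample, and no test between diets was run: every SD is the spread over cells, and every interval is an exact (Clopper-Pearson) 95% binomial interval that covers counting error only. The protocol in the labels names another tissue, Arc-ME, as the one digested, and the tissue label was followed.

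Rab proteins switch between a GDP-bound form, held soluble in the cytosol, and a GTP-bound form on a membrane. A lipid tail put on by a prenyltransferase anchors them, exchange factors load GTP, and GTPase-activating proteins return them to the GDP form. Each Rab marks a membrane or a route: export from the endoplasmic reticulum (ER) and the Golgi, fusion of secretory vesicles, early endosomes, recycling endosomes, or late endosomes and lysosomes. In neurons the Rab3 proteins sit on synaptic and dense-core vesicles. Many Rabs exist as close paralogs with the same number and different letters, and those groups are compared below.

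A transcript counts as found in a cell where its deposited value is above 0. The values are log2(CPM + 1), where CPM is a read count scaled to a library total. The listed genes drew between 50079 and 5319978 reads in a cell (median 651271), and 1 read stood for 0.16 to 16.1 CPM, so a transcript below that level can be missed. All 65 cells held the neuron markers, Hsd11b2 and Slc17a6. In 56 cells the CPM summed to 754874 to 1147326, and in 9 low-sodium cells to 1393471 to 2170050. A limit of 1200000, taken from earlier work on these data, separates these 9 high-sum cells, and results that rest on them are given with and without them. In 18 chow and 14 low-sodium cells at least 3 markers of 1 non-neuronal type exceeded 10 CPM, mainly of astrocytes (12 chow and 5 low-sodium cells) or oligodendrocytes (9 and 12).

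The paralogs are alike in sequence but share no window of 50 bases, as given below. The 60 coding bases below start at the conserved stretch of the switch II region, which changes shape when GTP is bound, and are shown so that paralogs can be set side by side over the same conserved stretch. Capitals mark bases that differ from the first gene of each group, and sequences are from GENCODE M21 transcripts on GRCm38. The first group is that of Rab3a (chr8:70754679-70758677, plus strand), Rab3b (chr4:108879063-108943324, plus), Rab3c (chr13:110054187-110280996, minus) and Rab3d (chr9:21907491-21918192, minus). All lie in the coding exons of these genes, from coding base 226 in Rab3a, Rab3b and Rab3d and from base 250 in Rab3c.
Rab3a: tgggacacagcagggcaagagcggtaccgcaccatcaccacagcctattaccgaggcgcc
Rab3b: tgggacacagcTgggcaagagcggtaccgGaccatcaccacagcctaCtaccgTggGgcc
Rab3c: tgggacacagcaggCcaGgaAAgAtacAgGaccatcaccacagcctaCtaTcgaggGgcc
Rab3d: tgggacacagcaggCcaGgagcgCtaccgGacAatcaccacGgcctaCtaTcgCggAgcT

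In this stretch Rab3b differed from Rab3a at 5 of 60 bases, Rab3c at 10 and Rab3d at 11. The second group is Rab1a (chr11:20201432-20226856, plus) from coding base 193 and Rab1b (chr19:5099205-5107072, minus) from base 184, which differed at 16 bases. The third group is Rab5b (chr10:128677175-128696264, minus) from base 220, Rab5c (chr11:100715009-100738215, minus) from base 223 and Rab5a (chr17:53479234-53507680, plus) from base 220. Rab5c differed from Rab5b at 12 bases and Rab5a at 15.
Rab1a: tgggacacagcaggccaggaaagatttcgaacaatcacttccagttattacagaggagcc
Rab1b: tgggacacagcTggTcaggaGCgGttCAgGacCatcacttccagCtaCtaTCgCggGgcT
Rab5b: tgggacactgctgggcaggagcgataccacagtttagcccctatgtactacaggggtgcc
Rab5c: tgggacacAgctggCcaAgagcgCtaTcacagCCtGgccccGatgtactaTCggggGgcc
Rab5a: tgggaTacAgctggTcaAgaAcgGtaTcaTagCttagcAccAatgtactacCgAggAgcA

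Over the whole coding sequence the paralogs shared 68.3% (Rab33a with Rab33b) to 78.4% (Rab6a with Rab6b) of aligned bases. Of the 50-base windows of each principal transcript, 0 occurred in a paralog of the same number. Windows that occur in other genes, on either strand, made 90.4% in Rab43, 80.3% in Rab4b and 43.5% in Rab24. They made 22.3% in Rab6a, 20.8% in Rab33b, 16.2% in Rab7, 14.0% in Rab11b and 13.0% in Rab5b, and less in the rest. How reads from such windows were counted is not given in the sources used here. Some exons overlap other annotated genes, and whether the counting used the strand is not given in the sources used here. Such overlaps cover 75.4% of the exon bases of Rab43 (same strand), 65.0% of those of Rab4b (same strand) and 62.4% of those of Rab24 (opposite strand, Prelid1), so the levels of these 3 genes are uncertain. For Rab6a the share is 19.0% (opposite strand), and for Rab33b 18.7% (opposite strand).

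HSD2 neurons held transcripts of most of the Rab genes in the table. A cell held 25 to 45 of the 46 (median 36), and 22 to 39 (median 30) once every cell was thinned to 50000 reads. Of all 11875 genes, a cell held 4652 to 11336 (median 8051) before thinning. Every line of the table is above 0 in at least 5 cells, so genes found more rarely are absent from both counts. The CPM of the Rab genes added up to 3825 to 14455 per cell (median 6465), which was 0.425% to 1.04% of the cell's summed CPM. That share was 0.673 ± 0.103% in chow cells and 0.666 ± 0.115% in low-sodium cells, a difference much smaller than the spread between cells. The leading genes by mean CPM held much of the total: the first 2 made 22.6% of the Rab CPM, the first 5 made 40.9% and the first 10 made 62.3%.

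Of the 46 genes, 13 were found in all 65 cells, against 10.7% of all genes (1274 of 11875). They were Rab1a, Rab1b, Rab2a, Rab6a and Rab6b of the ER and Golgi, Rab3a and Rab3b of secretion, Rab4b, Rab11a, Rab11b and Rab14 of recycling, Rab7 of late endosomes and lysosomes, and Rab28, which is known from photoreceptor cilia. After thinning, 9 genes were found in all cells (4.57% of all genes). A further 8 genes were found in 59 to 64 cells, 18 in 33 to 58, 5 in 16 to 32 and 2 in under 16 cells (8.55% of all genes). The 2 rare ones were Rab3d, found in 8 chow and 3 low-sodium cells, and Rab29, a Rab that recruits the kinase LRRK2, found in 5 chow and 4 low-sodium cells.

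**Figure D1:**
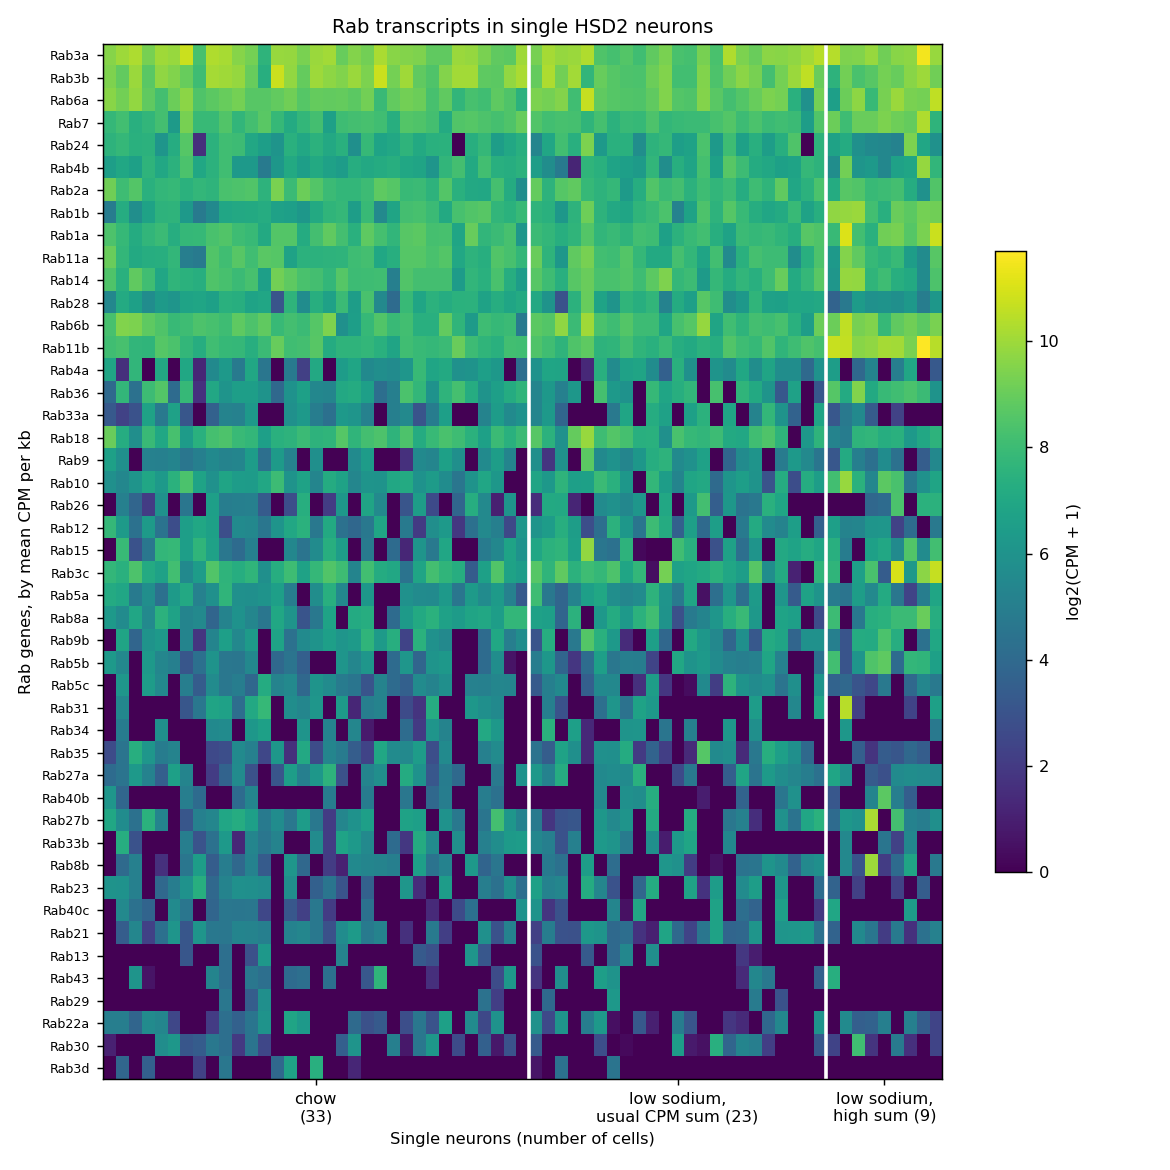
Deposited log2(CPM + 1) (colour) of the 46 Rab genes (rows, by mean CPM per kb) in the 65 cells (columns), split into 33 chow, 23 low-sodium and 9 high-sum low-sodium cells. The rows of the 13 genes found in all cells have no dark cell, whereas Rab3d and Rab29 are dark in all but 11 and 9 cells.

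Levels of different genes were compared as CPM per kb of the longest principal transcript. Rab3a stood first at a mean of 523 CPM per kb, followed by Rab3b at 208, Rab6a at 160, Rab7 at 147, Rab24 at 138, Rab4b at 134 and Rab2a at 125. Rab1b (123.6) and Rab1a (123.5) were level with each other, and Rab11a (108) and Rab14 (93.2) came next. Neighbours below Rab3a in this order differed by less than the spread between cells: the SD of Rab3b was 105 CPM per kb and that of Rab6a was 83.7. The lowest means were those of Rab30 (1.83 CPM per kb) and Rab3d (1.52). Rab24 and Rab30, like Rab10, Rab12, Rab13, Rab18, Rab21, Rab22a, Rab35, Rab36 and Rab43 where they appear, are named because of their values and not by the naming rule.

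The Rabs of ER and Golgi traffic, 12 genes with 5 found in all cells, made 32.4% of the Rab CPM. Such group shares are sums of CPM and are not divided by length or by the number of genes. Rab6a (chr7:100607410-100641268, plus), which directs retrograde transport to the Golgi, had a log2(CPM + 1) of 7.54, 8.83 and 9.81 in chow (lowest, median and highest cell) and 5.93, 9.04 and 10.66 in low sodium. Rab6b (chr9:103111787-103185276, plus), the paralog known from neurons, was at 4.77, 8.08 and 9.47 in chow cells and 6.50, 8.44 and 10.59 in low sodium. Both were found in each of the 65 cells, and the ranges of the diets overlapped, with the lowest and highest Rab6a cells both in low sodium. Rab2a, which acts between the ER and the Golgi, had a mean of 7.91 ± 0.70 (SD over 65 cells). Rab33a (47 cells) and Rab33b (40 cells), Golgi Rabs that bind an autophagy factor, had means of 3.82 ± 2.67 and 3.06 ± 2.75. In this group 23 (Rab43) to 65 cells held a given gene.

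The Rabs of regulated secretion made 33.5%, with 12 genes of which only Rab3a and Rab3b were found in all cells. Rab3a, the main Rab of synaptic vesicles, was at 7.61, 9.59 and 10.78 in chow cells and 8.12, 9.55 and 11.49 in low sodium. Rab3b was at 7.34, 9.54 and 10.75 in chow cells and 7.59, 9.12 and 10.59 in low sodium. Every cell thus held at least 7.34 of either gene, and the medians by diet lay within the SD over cells (0.71 for Rab3a, 0.76 for Rab3b). Rab3c was found in 63 cells at 6.95 ± 2.15 and Rab3d in 11 cells at 0.67 ± 1.69. Rab27a and Rab27b, which dock secretory granules at the plasma membrane, were found in 51 cells (4.02 ± 2.44) and 52 cells (4.46 ± 2.68). Rab8a and Rab8b, of transport from the Golgi to the plasma membrane and the cilium, were found in 59 cells (5.74 ± 2.27) and 46 cells (3.30 ± 2.57), and Rab26, a Rab of secretory vesicles, in 46 cells (3.68 ± 2.88).

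The level of Rab3a went down with the depth of the cell. Over the 65 cells the Spearman correlation of its log2(CPM + 1) with the reads per cell was -0.74, and it was -0.71 in the 33 chow cells, -0.81 in the 32 low-sodium cells and -0.77 in the 56 cells without high sums. After each cell was rescaled to the same sum, it was -0.70 over the 65 cells. Among the 1274 genes found in all cells the median correlation was -0.04, and 2.43% of them had a value as low as Rab3a or lower, with -0.97 the lowest. For Rab3b it was -0.43, for Rab11b -0.37 and for Rab28 0.39. Level and reads come from the same library, so these values describe the libraries, and what part depth has in the differences between cells was not tested.

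**Figure D2:**
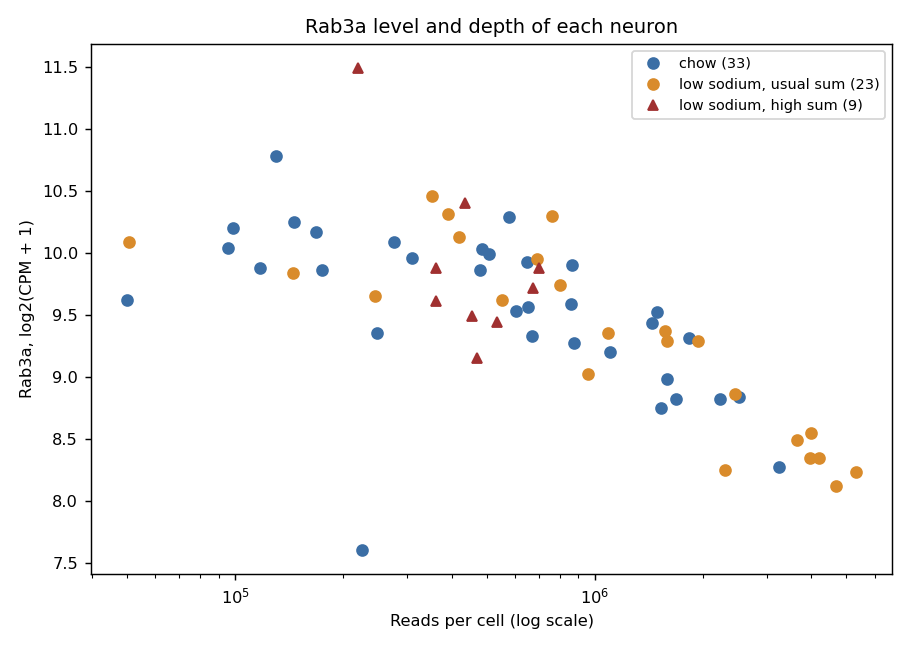
Log2(CPM + 1) of Rab3a in each cell (vertical axis) against the reads of that cell over the listed genes (horizontal axis, log scale), with chow cells, low-sodium cells and the 9 high-sum cells marked. The points fall from left to right in both diets, with a Spearman correlation of -0.74 over the 65 cells.

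Recycling Rabs were the group found most widely. Its 6 genes made 17.5% of the Rab CPM, 4 of them were found in all cells, and the least widely found was in 54 cells. Rab11a (chr9:64715299-64737758, minus) and Rab11b (chr17:33742484-33760530, minus), which govern slow recycling, had means of 7.71 ± 0.99 and 8.25 ± 0.96. Rab14, which links the Golgi and endosomes, was at 7.93 ± 0.90. Rab4b and Rab4a, of fast recycling, were found in 65 cells (6.96 ± 1.15) and 55 cells (4.84 ± 2.52).

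On the deposited scale, which also set the high-sum cells apart, Rab11b was higher in all 9 of them than in any other cell. Its lowest, median and highest values were 6.83, 7.88 and 9.04 in chow, 7.11, 7.92 and 8.79 in the other 23 low-sodium cells, and 9.36, 10.14 and 11.70 in the 9 high-sum cells, with no overlap. It was the only one of the 46 genes with this pattern, against 0.463% of all genes (55 of 11875), and 0 of the 46 had all 9 cells below the others. Once each cell was rescaled to the same sum, 0 of the 46 genes and 0.126% of all genes had all 9 cells above the others. Rescaled Rab11b was at 8.88, 9.57 and 10.58 in the 9 cells and at 7.14, 7.99 and 9.23 in the other 56, so the ranges then overlapped at their ends while the medians lay far apart. Rab11a minus Rab11b within a cell was -2.63 ± 1.66 in the 9 cells and -0.21 ± 1.00 in the other low-sodium cells.

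The endosomal groups took smaller shares of the Rab CPM. No Rab of the early endosome was found in all cells, and the 6 genes made 3.66% of the Rab CPM. Rab5a, Rab5b and Rab5c, which drive fusion of early endosomes, were found in 60 cells (5.21 ± 1.97), 54 cells (4.39 ± 2.46) and 55 cells (4.04 ± 2.16). Rab31, which acts between the trans-Golgi and endosomes, was found in 35 cells (2.87 ± 3.02). The 6 Rabs of late endosomes, lysosomes and autophagy made 9.96%, led by Rab7, the Rab of late endosomes and lysosomes, at 8.16 ± 0.66. Rab9 and Rab9b, which return receptors from late endosomes to the Golgi, were found in 53 cells (4.46 ± 2.41) and 56 cells (4.93 ± 2.48). Of the 4 genes outside these groups, Rab28 was at 6.60 ± 1.18, Rab23, a brake on Hedgehog signalling, at 3.27 ± 2.66 in 43 cells, and Rab40b and Rab40c, parts of ubiquitin ligases, at 1.95 ± 2.56 in 26 cells and 2.08 ± 2.45 in 32 cells.

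Within most paralog groups the same member was highest per kb in most cells. Rab3a was the highest of the Rab3 group in 65 of 65 cells (100%, interval 94.5% to 100%), with 67.7 ± 8.94% of the group's CPM per kb, against 28.1 ± 8.68% for Rab3b, 3.97% for Rab3c and 0.179% for Rab3d. Rab6a was highest in 62 of 65 cells (95.4%, 87.1% to 99.0%), and the other 3 were high-sum cells. Rab4b was highest in 56 of 65 (86.2%, 75.3% to 93.5%), subject to its overlap with another gene. Rab11a was highest in 51 of 65 (78.5%, 66.5% to 87.7%) and Rab8a in 50 of 65 (76.9%, 64.8% to 86.5%). Among cells with any member found, Rab33a was highest in 44 of 56 (78.6%, 65.6% to 88.4%) and Rab9 in 43 of 63 (68.3%, 55.3% to 79.4%). These shares depend on the division by length: without it Rab3a was highest in 36 of 65 cells (55.4%), Rab11a in 29 of 65 (44.6%) and Rab9 in 24 of 63 (38.1%), and Rab11b, Rab9b, Rab1a and Rab27b had the highest means of their groups.

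Other groups were shared. Rab1a was highest in 37 cells and Rab1b in 28, with mean shares of 51.9% and 48.1%. Rab27a was highest in 32 of 59 cells (54.2%, 40.8% to 67.3%) and Rab27b in 27. In the Rab5 group Rab5a was highest in 35 cells (53.8%, 41.0% to 66.3%), Rab5c in 17 and Rab5b in 13, and with the length of all merged exons Rab5c had the highest mean. Rab40c was highest in 26 of 45 cells and Rab40b in 19. In the Rab1, Rab27 and Rab40 groups there was no clear leader, since the intervals include an even split between 2 members. In the Rab5 group, with 3 members, the interval of Rab5a lies above an even share. The leader of each group was picked from these same cells, so the interval is no test of its lead. The lead of Rab5a depended on the length used, as it was highest in 24 of 65 cells (36.9%) with merged exons. After thinning Rab5a was highest in 26 of 61 cells (42.6%).

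Paralogs of low level were often found without each other. Rab8a and Rab8b were both found in 40 cells, Rab8a alone in 19 and Rab8b alone in 6. For Rab27a and Rab27b it was 44 cells with both, 7 and 8 with 1 of them and 6 with neither, and for Rab33a and Rab33b it was 31 with both, 16 and 9 with 1 and 9 with neither. Rab40b and Rab40c were both found in 13 cells, 13 and 19 cells had 1 of them and 20 had neither. After thinning to 50000 reads the cells with both fell in number to 22 for Rab8, 26 for Rab27, 19 for Rab33 and 6 for Rab40, so a missing paralog at this depth does not show that the cell lacks it.

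**Figure D3:**
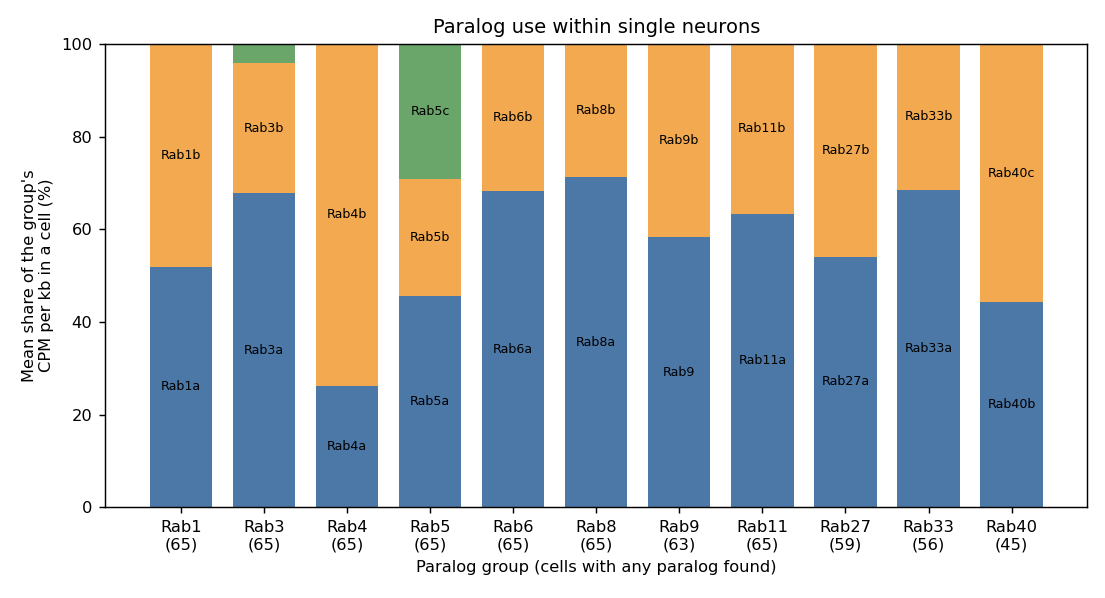
Mean share of each paralog (bar segments, per cent) in the summed CPM per kb of its group within a cell, over the cells with any member found (number under each group). Rab3a holds 67.7% of its group and Rab6a 68.3% of its own, while Rab1a and Rab1b hold 51.9% and 48.1%, and the small unlabelled top segment of Rab3 is Rab3c with Rab3d.

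Few genes of the family went up and down together from cell to cell. Over the 210 pairs of the 21 genes found in at least 59 cells, Spearman correlations across 65 cells ran from -0.39 to 0.51 with a median of 0.03. The genes most alike were Rab11a with Rab14 (0.51), Rab3a with Rab3b (0.50) and Rab11a with Rab18 (0.50), and in the 56 cells without high sums these were 0.39, 0.58 and 0.54. The paralogs Rab6a and Rab6b were at 0.40, Rab1a and Rab1b at 0.23 and Rab11a and Rab11b at 0.14. All genes of a cell share its depth and scaling, and Rab3a and Rab3b both had lower levels in deeper cells.

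Some Rabs were found more often in cells with markers of other cell types. Rab34, a Rab of Golgi and lysosome positioning and of cilium formation, was found in 20 of 32 cells with non-neuronal markers (62.5%, 43.7% to 78.9%) and in 7 of 33 without (21.2%, 8.98% to 38.9%). Rab29 was found in 8 and in 1 of these cells. Of the 17 cells with astrocyte markers 8 held Rab29, against 1 of the other 48. Rab13 was found in 10 of the 17 cells with astrocyte markers and in 6 of the 48 others. The marked cells were deeper, with a median of 728374 reads against 550440 (872066 with and 563846 without astrocyte markers). After thinning, Rab34 was found in 17 cells with and 4 without non-neuronal markers, and Rab29 in 6 and 0. Rab33a was found in 26 cells with and 21 without such markers, and in 25 and 14 after thinning. Thinned Rab13 was found in 4 of the 17 cells with astrocyte markers and 4 of the other 48, and in 4 cells with and 4 without any non-neuronal markers. The part of RNA from other cells in these values was not tested. Rab40b was among those that went the other way, found in 9 cells with and 17 without such markers (7 and 11 after thinning). Others were Rab5a (27 of 32 cells with and 33 of 33 without, 21 and 26 after thinning) and Rab27b (23 and 29, 19 and 25 after thinning). These genes are examples picked after their values were seen, and the share of all genes found more often in marked cells is not given here.

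The study compared HSD2 neurons under sodium shortage with those under standard chow. Over the whole family, the diet difference was close to that over all genes. In low-sodium cells 18 of the 46 genes (39.1%) had a higher mean log2(CPM + 1) and 28 a lower one, where 41.5% of all genes were higher. The median difference, low sodium minus chow, over the 43 members with a mean of at least 1 was -0.07, against -0.12 over all such genes. Without the 9 high-sum cells the counts were again 18 higher and 28 lower (42.5% of all genes higher), with medians of -0.07 and -0.09, and 34 of 46 genes had the same sign with and without these cells. For 0 of the 46 genes did the difference exceed the SD over cells of both diets. The shares of all genes with the same sign, or past the SD, are not given here. These counts therefore do not set the family apart.

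Only Rab5b had a mean higher by at least 1 on the log2 scale (3.61% of all genes), and only Rab33b had one lower by at least 1 (6.55%). Rab5b was at 0, 4.52 and 6.33 in chow (lowest, median, highest) and at 0, 5.14 and 8.79 in low sodium, with means of 3.73 ± 2.43 and 5.06 ± 2.33, a difference of 1.33. Cells at 0 occurred in both diets, and the transcript was found in 25 of 33 chow cells and 29 of 32 low-sodium cells. Without the 9 high-sum cells, whose own median was 7.64, the difference was 0.67. Rab33b was at 0, 4.59 and 7.29 in chow cells and at 0, 0.45 and 6.90 in low sodium, with means of 3.63 ± 2.67 and 2.46 ± 2.74, a difference of -1.17, or -0.98 with the 9 cells left out. It was found in 24 chow and 16 low-sodium cells. Without the 9 cells, 0 members were higher by 1 (2.84% of all genes) and 2 were lower by 1 (6.27%), Rab36 at -1.31 and Rab27b at -1.29, which were at -0.51 and -0.70 over all cells. Without the 9 cells, Rab27b was at -0.64 after thinning and at -0.36 when cells with non-neuronal markers were left out too, and Rab36 at -1.62 and -1.87.

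Other high differences were those of Rab15 (0.96), a Rab found mainly in neural tissue, Rab1b (0.81), Rab9 (0.68), Rab11b (0.67) and Rab26 (0.50). Rab15 was at 0, 4.88 and 7.87 in chow cells and at 0, 6.68 and 9.79 in low sodium, with an SD of 2.73 and 2.94. Its difference was 0.73 without the 9 cells and 1.70 without the cells that carried non-neuronal markers. Rab1b was 1.19 without the cells that carried non-neuronal markers. Without the 9 cells Rab1b was 0.36 and Rab9 0.88. Rab11b was 0.01 without them, so its difference rests on these cells, and that of Rab26 was 0.68 without them but -0.04 when cells with non-neuronal markers were left out as well. Rab5b, Rab15, Rab1b and Rab9 kept their sign under all 12 other settings.

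Other low differences were those of Rab31 (-0.95), Rab23 (-0.73), Rab33a (-0.70), Rab27b (-0.70) and Rab34 (-0.64), and the rare Rab3d was at -0.72. Rab31 was at 0, 4.19 and 7.83 in chow cells and at 0, 0 and 10.42 in low sodium, being found in 21 and 14 cells, and was at -0.96 without the 9 cells, but at -0.56 without the cells with non-neuronal markers and -0.22 without both sets. Its log2 ratio of mean CPM plus 1 was positive (0.68), with the highest low-sodium cell above the highest chow cell. Rab23 was -0.10 without the 9 cells, but -1.52 without the cells with non-neuronal markers and -1.10 without both sets. Rab33a was at -0.18, -0.05 and 0.93 under the same settings. Rab33b and Rab23 kept their sign under all 12 other settings, whereas Rab31, Rab33a, Rab27b and Rab34 changed it under at least 1. Rab34 was at -0.16 without the cells with non-neuronal markers, of which chow had more.

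**Figure D4:**
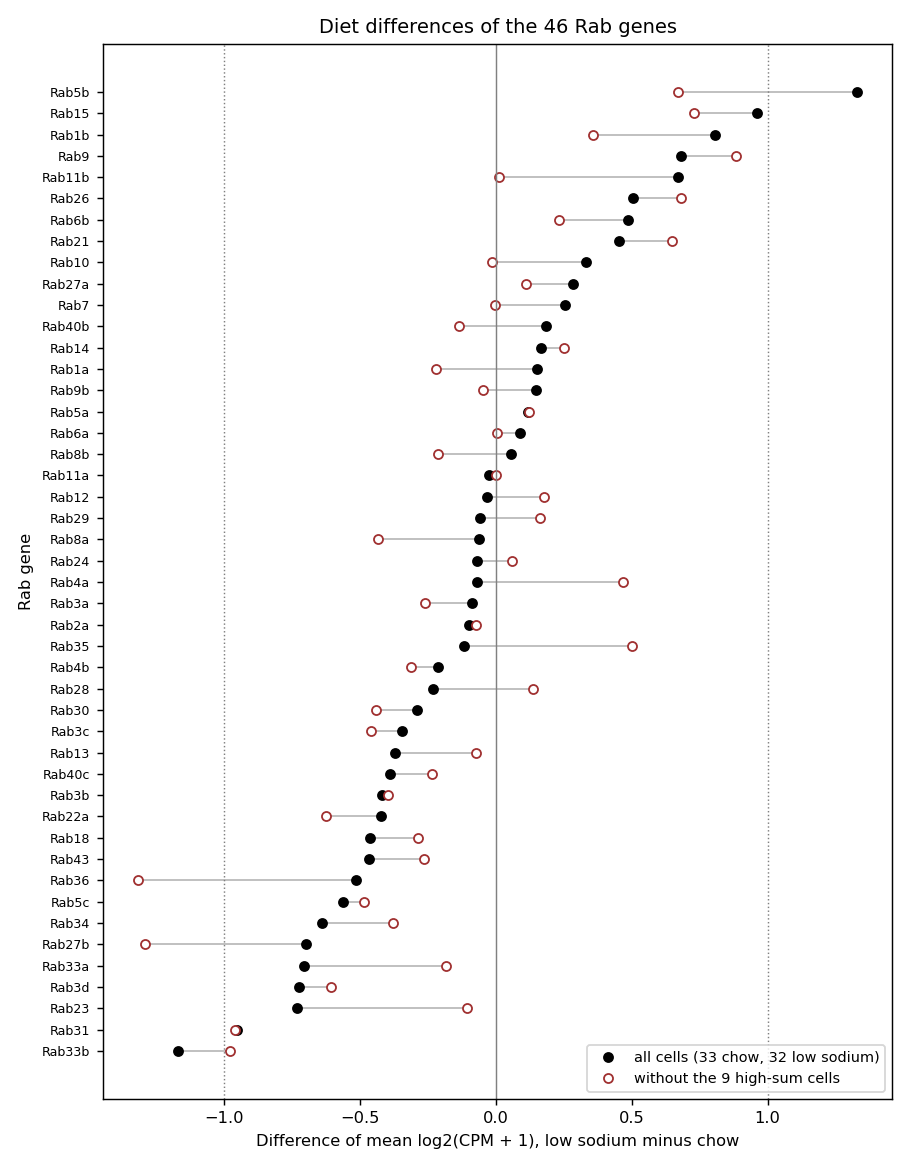
Difference of mean log2(CPM + 1), low sodium minus chow (horizontal axis), of each of the 46 Rab genes, over all cells (filled) and without the 9 high-sum cells (open), with dotted lines at 1 and -1. Rab5b moves from 1.33 to 0.67 and Rab11b from 0.67 to 0.01, while Rab31 is at -0.95 and -0.96.

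By role, the median difference was -0.38 for ER and Golgi traffic (4 of 12 higher), -0.08 for secretion (5 of 12), -0.15 for early endosomes (3 of 6), -0.05 for recycling (2 of 6) and 0.06 for late endosomes, lysosomes and autophagy (3 of 6). Without the 9 cells these medians were -0.24, -0.24, -0.18, 0.13 and 0.11. The genes higher were then 3 of 12, 3 of 12, 3 of 6, 4 of 6 and 4 of 6. Among all genes 41.5% were higher, or 42.5% without the 9 cells. Over all genes with a mean of at least 1 the medians were -0.12 and -0.09. The share of the Rab CPM taken by secretion was 35.1 ± 7.10% in chow cells and 31.9 ± 9.28% in low sodium, and that of recycling was 16.4 ± 2.77% and 18.5 ± 4.32%. Each of these differences lay within the spread between cells.

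The balance of 2 paralogs within a cell, the difference of their log2(CPM + 1), does not depend on how the cell was scaled except near 0. Rab1a exceeded Rab1b by 0.91 ± 1.15 in chow cells (lowest -1.74, median 0.91, highest 3.54) and by 0.26 ± 1.08 in low-sodium cells (-1.89, 0.30 and 2.33). The shift towards Rab1b was -0.66, and it was -0.58 without the 9 cells, -0.62 after thinning and -0.89 without the cells with non-neuronal markers. It was smaller than the SD over cells of either diet, and the ranges overlapped. Per kb, chow cells had Rab1b highest in 10 of 33 (30.3%, 15.6% to 48.7%). Low-sodium cells had Rab1b highest in 18 of 32 (56.2%, 37.7% to 73.6%). With each diet being 1 sample, a difference between these shares was not tested.

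Rab5b against Rab5c moved towards Rab5b, from -0.58 ± 2.98 in chow (lowest -7.21, median 0, highest 6.33) to 1.31 ± 2.98 in low sodium (-5.81, 1.10 and 7.03). The shift of 1.89 was 1.15 without the 9 cells, 1.08 after thinning and 1.42 without the cells with non-neuronal markers. It too was smaller than the SD over cells, and many cells were at 0 for 1 of these genes. Rab11a against Rab11b was -0.20 ± 0.98 in chow cells and -0.89 ± 1.63 in low sodium, and the shift of -0.69 was -0.01 without the 9 cells, in which all 9 had Rab11b above Rab11a. For Rab3a against Rab3b the shift was 0.33 (0.14 without the 9 cells), for Rab6a against Rab6b -0.40 (-0.23), and for Rab27a against Rab27b 0.98 (0.14 after thinning), from -0.92 ± 3.23 in chow to 0.06 ± 3.29 in low sodium, or 0.48 ± 3.19 without the 9 cells.

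**Figure D5:**
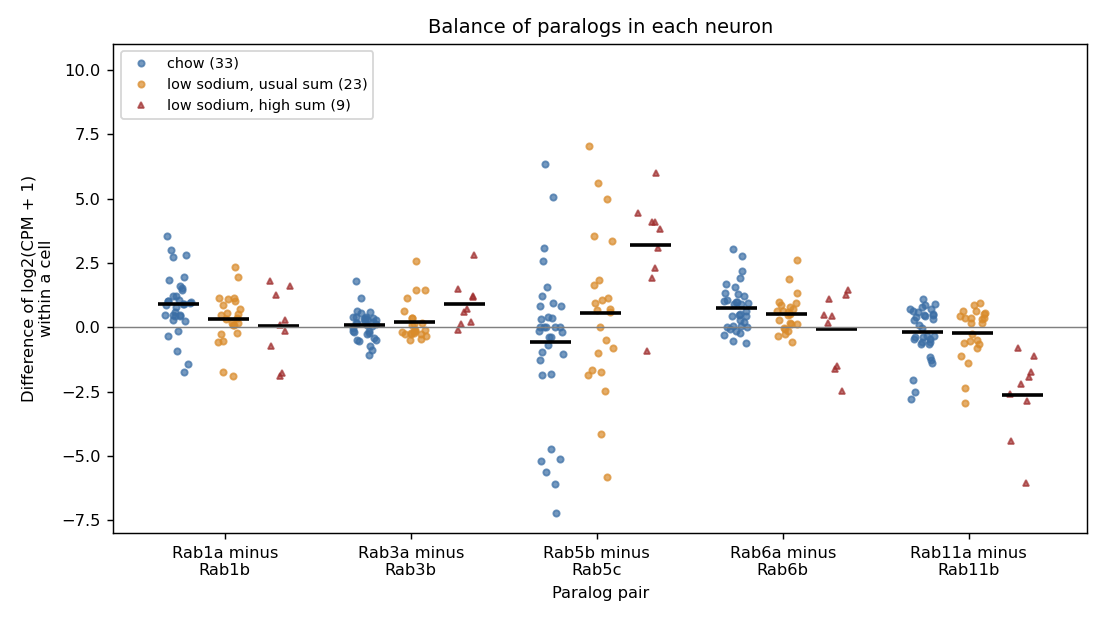
Difference of log2(CPM + 1) between 2 paralogs within a cell (vertical axis) for 5 pairs, by diet and with the 9 high-sum cells apart; points are cells and bars are means. Chow cells lie higher than low-sodium cells for Rab1a minus Rab1b on average (0.91 and 0.26), and the 9 high-sum cells are all below 0 for Rab11a minus Rab11b.

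The partners of the Rabs were described from lists of known genes. Of 10 listed genes for prenylation and escort, 9 were measured and 2 were found in all cells. Rabac1, a Rab acceptor of the Golgi, was found in all 65 at 8.30 ± 0.85. Fnta, a prenyltransferase subunit, was at 6.50 ± 2.24 in 62 cells and Rabggtb, a subunit of the Rab prenyltransferase, at 6.14 ± 1.65 in 62 cells. In low sodium 8 of the 9 had a lower mean, as did 58.5% of all genes, with a median of -0.53 beside -0.12 over all genes, and without the 9 high-sum cells 9 of 9 were lower (57.5% of all genes), with a median of -0.32 beside -0.09. The largest difference was that of Rabggta, the other subunit of that enzyme (5.38 ± 2.06 and 4.52 ± 2.70, -0.86, or -0.65 without the 9), and Fnta was at -0.64 (-0.38). None of the 9 passed a difference of 1, and the differences of these named genes were within the SD over cells of low sodium.

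Of 41 exchange factors 37 were measured, 21 with a higher and 16 with a lower mean in low sodium, where 41.5% of all genes were higher, and a median of 0.15 (0.17 without the 9 cells). The highest means were those of Madd (7.36 ± 1.43), the exchange factor of Rab3 and Rab27, and of the subunits of the TRAPP complex Trappc4 (7.29 ± 0.85), Trappc9 (6.56 ± 2.19) and Trappc1 (6.54 ± 1.33). Sbf1, a myotubularin-related protein with a DENN domain, had the largest difference, 3.93 ± 2.61 in chow cells and 5.99 ± 2.54 in low sodium (2.06, or 1.33 without the 9 cells). Dennd4b differed by 1.28 (0.80). Of 36 GTPase-activating proteins 32 were measured, 16 higher and 16 lower, beside the same 41.5% of all genes higher. Tbc1d9b (7.96 ± 1.11), Rab3gap1 (7.09 ± 1.34), Sgsm1 (6.83 ± 2.05) and Rab3gap2 (5.96 ± 2.40) had the highest means, and Rab3gap1 with Rab3gap2 forms the complex that acts on Rab3. Tbc1d20, which acts on Rab1, was at 2.21 ± 2.20 in chow cells and 3.61 ± 3.07 in low-sodium cells, but differed by 0.05 without the 9 cells. Tbc1d10b, which acts on Rab27 and Rab35, differed by -1.08 (-1.01).

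Of 54 effectors 46 were measured, 18 higher and 28 lower (58.5% of all genes were lower), with a median of -0.11 (-0.18 without the 9 cells). Rufy3 (8.42 ± 0.86), the Rab3 effector rabphilin, Rph3a (7.89 ± 1.25), the motor Myo5a (7.88 ± 1.47) and Dmxl2, known as rabconnectin (7.33 ± 1.62), had the highest means. The largest differences were those of the Rab11 effector Rab11fip2, found in 27 chow and 19 low-sodium cells (4.04 ± 2.32 and 2.40 ± 2.32, -1.64, or -1.02 without the 9 cells), and of Rilpl2 (3.88 ± 2.94 and 2.41 ± 2.77, -1.47, or -1.40). Both were smaller than the SD over cells.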

How the data were processed

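The authors deposited 1 table of log2(CPM + 1) values per gene and cell. The submitters' processing notes name featureCounts 1.4.6 and HISAT2 2.0.5, beside SAMtools 0.1.19, Picard 2.5.0 and bcl2fastq, and mm10 or GRCm38 as build. No setting, annotation, cell filter or scaling total is given (not given in the sources used here). Per the labels, libraries of polyA RNA were made with Smart-Seq2 and Nextera XT. Of 12015 lines, each above 0 in at least 5 cells, 121 that share 60 names and 19 with serial numbers for names were left out of all but the totals.

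CPM were recovered from the log2 values. In every cell 100% of the low CPM lay within 0.1 steps of a whole multiple of the smallest step, taken as 1 read, which also gave the thinning to 50000 reads (seed 1). The diets are 1 sample each, so a difference is the low-sodium mean of log2(CPM + 1) minus the chow mean, with a size rule of 1 in place of a test. The pseudocount is 1 CPM, and cells at 0 enter the mean. Lengths are those of the longest APPRIS principal transcript in GENCODE M21. Named are all paralogs, members found in all or under 16 cells, the 6 highest and 6 lowest diet differences among members in at least 16 cells, and for each partner list the 4 highest means and 2 largest differences. 1 gene that this rule took is not reported here. The members and lists were chosen with earlier results of these data known. Alternatives were other pseudocounts, scalings, lengths, detection limits and sets of cells. Python 3.11.15, NumPy 2.4.6, SciPy 1.17.1, pandas 2.3.3 and matplotlib 3.10.9 were used.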

Additional observations from a re-analysis of the deposited data

How the results depend on the processing

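No paired analysis was possible because the neuron numbers in the labels count cells and pair none of them, and no test was run. Of 276 values under other settings, 236 moved by less than the spread or limit set for them, and 40 moved more. The 236 include 154 values of single members, for which the limit is wide enough to take in changes of sign. The count is therefore no measure of how stable these differences are. Among the named differences those of Rab11b, Rab26, Rab27b, Rab31, Rab33a, Rab34 and Rab36 changed sign under at least 1 setting. The median diet difference of -0.07 was -0.25 after rescaling each cell to 1000000, 0.28 from the ratio of mean CPM (plus 1, log2) and -0.18 after thinning, where the median of all genes was -0.27, 0.16 and -0.30, and 0.02 with size factors or with thinning and no high-sum cells, so its sign depends on the setting. The 1 member higher by at least 1 became 0 with a pseudocount of 10 CPM, without the high-sum cells or without the 7 cells with the fewest genes, 2 with size factors or thinning, 3 with a pseudocount of 0.1 CPM, 5 as the ratio of means and 6 when cells with non-neuronal markers were left out. The 1 member lower by at least 1 became 0 with a pseudocount of 10 CPM, 2 after rescaling or without the high-sum cells, 3 after thinning, 5 without the cells with non-neuronal markers, 7 as medians over cells and 8 with a pseudocount of 0.1 CPM. Leaving out the high-sum cells with thinning gave 5 higher and 2 lower, and leaving out both sets of cells gave 5 higher and 6 lower. These 2 settings were chosen after seeing the data. The shares of all genes past 1 are given only for all cells and without the high-sum cells. The counts under the other settings therefore do not set the Rab genes apart from other genes. Without division by length 7 of 11 groups kept the same leading paralog, and Rab1, Rab9, Rab11 and Rab27 did not. The median of the prenylation list was -0.32 without the high-sum cells, instead of -0.53. The cause of these moves was not tested. The number of Rab genes found in all cells was 9 to 14, the lowest after thinning, so shares of low genes are limited by depth. With 1 sample per diet, no difference could be separated from differences between animals, and pseudocounts of 0.1 CPM weight cells at 0.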
